A study of Saccharomyces cerevisiae with 12 samples.

Results

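The response of budding yeast to 200 mg/L of alachlor was compared with its response to 110 mg/L, gene by gene, as the difference between both responses. Alachlor is a chloroacetanilide herbicide, used against annual grasses. The cells were Saccharomyces cerevisiae BY4741, a haploid laboratory strain that lacks LEU2, URA3 and MET17 and carries a partial deletion of HIS3, taken in exponential growth in minimal medium. All 12 arrays of the series entered the comparison, 3 in each of 4 groups, each from a separate culture according to the series text. The experiment labelled LOEC held untreated controls and cultures with 110 mg/L, and the experiment labelled IC20 held its own untreated controls and cultures with 200 mg/L, all sampled after 2 h. LOEC and IC20 are names from toxicology, for a lowest concentration with an observed effect and for a concentration that partly inhibits. Each dose was run only in its own experiment, so dose and experiment cannot be told apart in any difference given here.

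A response was the mean log2 intensity of the treated arrays minus that of the controls of the same experiment. The difference of responses was the response at 200 mg/L minus the response at 110 mg/L, so a positive value stands for a stronger rise, a weaker fall or a turn from fall to rise at the higher dose. A gene passed when its p from limma's moderated test, adjusted by the Benjamini-Hochberg method over 5449 genes, was under 0.05. Replicate arrays correlated with r from 0.9929 to 0.9983 over the table. Within groups, the SD of log2 intensity had a median over genes of 0.0559 and 0.0566 for the controls and treated arrays of the LOEC experiment, and 0.0823 and 0.0947 in the IC20 experiment. Deviations of arrays from their group mean followed the coding length of genes with rho from -0.0777 to 0.152 in the LOEC experiment and from -0.488 to 0.57 in the IC20 experiment. The difference of responses itself followed coding length with rho 0.14 across genes, which are not independent replicates. IC20 control array 2 and 200 mg/L array 1 were also left out together, and 44 of the 68 calls described here remained among the 52 made without them. The probe sets of LEU2, URA3 and MET17 read at most 228.8, and a value at or below that level is treated here as not distinguishable from a missing transcript. The HIS3 probe set read 6721 to 9552. Mating type a genes MFA1, MFA2, STE2, BAR1 and AGA2 read 6179 to 24037. Of the alpha-specific genes, STE3 and MF(ALPHA)1 stayed below 228.8, MF(ALPHA)2 read 163 to 377 and SAG1 read 1112 to 1831. Array values are relative to the RNA put on each array. That RNA came from a whole culture, so a change in every cell and a change in a share of the cells cannot be told apart.

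Yeast meets many foreign compounds with the pleiotropic drug resistance network, in which the transcription factors Pdr1 and Pdr3 raise plasma membrane ABC exporters such as Pdr5, Snq2 and Yor1, together with proteins that move or remodel membrane lipids. A second arm, led by Yap1 and related factors, raises reductases and glutathione-linked enzymes that act on reactive aldehydes, ketones and electrophiles. Phospholipid synthesis is set by the activators Ino2 and Ino4 and the repressor Opi1, and INO1 is among the targets that answer most strongly to inositol supply.

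The responses differed in 68 of 5449 genes, which is 1.25% of those tested. For 54 genes (0.991%) the difference was positive, from 0.26 to 2.06 on the log2 scale, and for 14 (0.257%) it was negative, from -0.90 to -0.24. Targets of Pdr1 and Pdr3, reductases of aldehydes and ketones, INO1, and some genes of nitrogen supply and mitochondrial carbon metabolism made up much of the positive set. The iron transporter genes FTR1 and FET4, the acid phosphatase gene PHO3 and the ester synthase gene EEB1 were in the negative set. An unadjusted p under 0.05 was reached by 576 of 5449 genes, 300 with a positive and 276 with a negative difference. By itself, the response at 110 mg/L passed in 232 genes (4.26%) and that at 200 mg/L in 971 genes (17.8%). These counts rest on 1 estimate of the spread per gene, shared by both experiments, although the IC20 arrays spread more widely. With arrays weighted by experiment the counts were 514 and 630, and 67 genes passed for the difference. Across all genes the responses correlated with r = 0.646 and rho = 0.537 (n = 5449 genes, not independent; different arrays and different controls, but the same probe sets), and the SD of the response over genes was 0.173 at 110 mg/L and 0.254 at 200 mg/L.

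**Figure D1:**
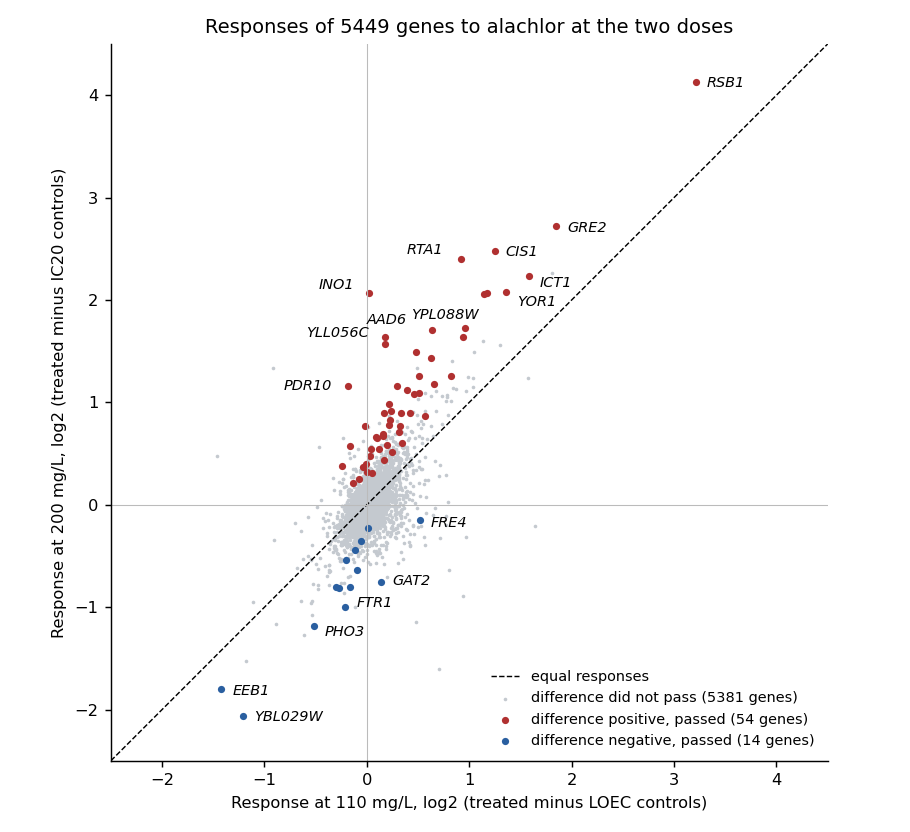
Each point is a gene, placed by its response at 110 mg/L (horizontal axis, log2) and at 200 mg/L (vertical axis, log2), with the dashed line marking equal responses. The 54 genes with a positive difference lie above the line and the 14 with a negative one below it, with INO1, PDR10, AAD6 and YLL056C close to 0 on the horizontal axis.

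Among the 68 genes, 57 responded in the same direction with a larger size at 200 mg/L, 46 of them as rises and 11 as falls. In 11 the fitted responses had opposite signs, and in 0 the response kept its sign and was smaller at 200 mg/L. The response passed at both doses in the same direction in 34 genes and only at 200 mg/L in 32, a split that rests on the same shared spread. FRE4 passed only at 110 mg/L, and OPI3 passed at both doses in opposite directions. All 3 arrays of 200 mg/L lay beyond all 9 other arrays in 67 of the 68 genes, FRE4 being the exception. These classes describe the genes that the same fit had picked out. Gene lists are described below by the number of members that passed, to be read against the shares over all genes given above. The lists were chosen with earlier results of these data known, so their counts and medians are a description and test nothing.

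Targets of Pdr1 and Pdr3 held 11 genes with a positive difference and 0 with a negative one among 22 measured, against 0.991% of all genes with a positive difference. Their median difference was 0.45, beside -0.0047 for all genes, and 21 of the 22 values were above 0, compared with 48.5% of all genes. The members that passed were the ABC transporter genes YOR1, PDR10 and PDR15, the antiporter genes TPO4 and FLR1, the lipid genes RSB1, RTA1, PDR16 and ICT1, the reductase gene GRE2, and CIS1. The list's median response was 0.51 at 110 mg/L and 1.06 at 200 mg/L.

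PDR10 (YOR328W) encodes an ABC transporter of the plasma membrane closely related to Pdr5. Its intensity was 1330, 1127 and 1312 in the LOEC controls and 1150, 1045 and 1116 at 110 mg/L, then 1401, 1194 and 1285 in the IC20 controls and 2677, 2868 and 3129 at 200 mg/L. Arrays at 110 mg/L overlapped their controls, while those at 200 mg/L lay above every other array. The response was -0.18 (SE 0.083, adjusted p = 0.307) at 110 mg/L and 1.16 (SE 0.083, adjusted p = 3.59e-06) at 200 mg/L, a difference of 1.34 (SE 0.12, adjusted p = 0.000171). PDR15 (YDR406W), another relative of PDR5, read 1315, 1235 and 1244 in the LOEC controls, 982, 1113 and 1128 at 110 mg/L, 1347, 1230 and 1271 in the IC20 controls, and 1636, 1608 and 1762 at 200 mg/L. All 3 arrays at 110 mg/L were below all controls and all 3 at 200 mg/L above them. Its response of -0.24 at 110 mg/L did not pass (adjusted p = 0.0631), and it rose by 0.38 at 200 mg/L (adjusted p = 0.00182), with a difference of 0.62 (SE 0.088, adjusted p = 0.00567).

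YOR1 (YGR281W), which encodes the oligomycin exporter, had already risen at 110 mg/L. Its intensity went from 2685, 2620 and 2656 to 7002, 6752 and 6754 in the LOEC experiment and from 2544, 2386 and 2559 to 10336, 10009 and 11445 in the IC20 experiment. The rises were 2.58-fold and 4.24-fold, and the difference was 0.72 (SE 0.074, adjusted p = 0.00051). TPO4 (YOR273C), a polyamine antiporter gene, rose 1.26-fold and 1.87-fold, with a difference of 0.57 (SE 0.11, adjusted p = 0.0264). For FLR1 (YBR008C), an antiporter gene of fluconazole and benomyl resistance, the responses were 0.036 (adjusted p = 0.897) and 0.54 (adjusted p = 0.00059), and the difference of 0.50 was at the edge of the threshold (SE 0.11, adjusted p = 0.04999). The calls of TPO4 and FLR1 held in 3 and 2 of the 12 fits that left out 1 array. In the wider list of 18 drug antiporters, TPO4 and FLR1 were the members that passed, and the median difference was 0.089.

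The major exporter PDR5 did not differ by this test. Its intensity was 9206, 9180 and 9068 in the LOEC controls, 18010, 17956 and 17877 at 110 mg/L, 9841, 9324 and 9524 in the IC20 controls and 20522, 20555 and 20955 at 200 mg/L. PDR5 rose at both doses, by 0.97 and 1.11, and the difference of 0.14 had a 95% interval of 0.034 to 0.25 (adjusted p = 0.274). SNQ2, an exporter of mutagens and other drugs, read 6054, 6297 and 6650, then 10495, 10490 and 10569, in the LOEC experiment, and 6376, 6149 and 6328, then 13331, 11996 and 13921, in the IC20 experiment. The 200 mg/L arrays lay above those at 110 mg/L but spread more widely. SNQ2 rose by 0.73 and 1.06, with a difference of 0.32 and an interval of 0.15 to 0.50 (adjusted p = 0.0965). The remaining members had differences of 0.45 for PLB1 (phospholipase B), 0.44 for RPN4 (activator of proteasome genes), 0.27 for YGR035C, 0.23 for TPO1 (polyamine exporter), 0.21 for PDR3 itself, 0.19 for HXT11, 0.16 for IPT1 (sphingolipid synthesis), 0.082 for HXT9 and -0.0082 for PDR18, and none of them passed (adjusted p from 0.0965 to 0.985). PDR18, HXT9 and HXT11 read below 228.8 on every array.

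Of the lipid-linked targets, RSB1, PDR16 and ICT1 rose at both doses and further at 200 mg/L. RTA1 read below or near the level of the deleted loci in the other 3 groups. RSB1 (YOR049C) encodes a membrane protein that protects cells from sphingoid long-chain bases. Its intensity was 222, 227 and 225 in the LOEC controls and 2058, 2151 and 2020 at 110 mg/L, and 216, 239 and 242 in the IC20 controls and 4339, 4118 and 3737 at 200 mg/L. Controls of both experiments sat at about the level of the deleted loci, and the treated groups did not overlap each other. The difference was 0.92 (SE 0.087, adjusted p = 0.000252), which is 1.89-fold, and it was 0.92 again with values below 228.8 raised to that level. RTA1 (YGR213C), of the same protein family, read 110, 113 and 133 in the LOEC controls, 217, 232 and 221 at 110 mg/L, 128, 99.4 and 117 in the IC20 controls and 638, 615 and 566 at 200 mg/L. The fitted response of RTA1 at 110 mg/L passed (0.92, adjusted p = 0.000186), but between readings below or near the level of the deleted loci. Only at 200 mg/L did RTA1 clearly exceed that level. Its difference of 1.49 (SE 0.14, adjusted p = 0.000211) became 1.40 with low values raised (adjusted p = 2.34e-06). PDR16 (YNL231C), a phosphatidylinositol transfer protein gene, read 2201, 2140 and 2143, then 3775, 3837 and 3819, in the LOEC experiment, and 2278, 2466 and 2385, then 5868, 5818 and 5399, in the IC20 experiment. It rose 1.76-fold and 2.4-fold (difference 0.44, SE 0.063, adjusted p = 0.00561). ICT1 (YLR099C), which encodes a lysophosphatidic acid acyltransferase, read 1086, 1102 and 1289 in the LOEC controls, 3518, 3289 and 3602 at 110 mg/L, 1223, 1281 and 1459 in the IC20 controls and 6462, 6115 and 5970 at 200 mg/L. No treated array overlapped a control, and the treated groups lay apart. ICT1 rose 3-fold and 4.69-fold (difference 0.65, SE 0.11, adjusted p = 0.0203), a call kept in 6 of the 12 fits that left out 1 array.

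CIS1 (YLR346C), a small target gene of the network, read 351, 312 and 344 in the LOEC controls, 790, 784 and 825 at 110 mg/L, 381, 351 and 372 in the IC20 controls and 2080, 2091 and 1974 at 200 mg/L. The groups were in 3 separate levels, with both control groups overlapping, and the difference was 1.22 (SE 0.075, adjusted p = 9.89e-06). GRE2 (YOL151W), a methylglyoxal reductase gene, read 2708, 2729 and 2864, then 10152, 9638 and 10063, in the LOEC experiment. In the IC20 experiment it read 2517, 2646 and 2714, then 17457, 16988 and 17551. The rises were 3.6-fold and 6.6-fold, and the difference was 0.88 (SE 0.061, adjusted p = 2.46e-05).

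**Figure D2:**
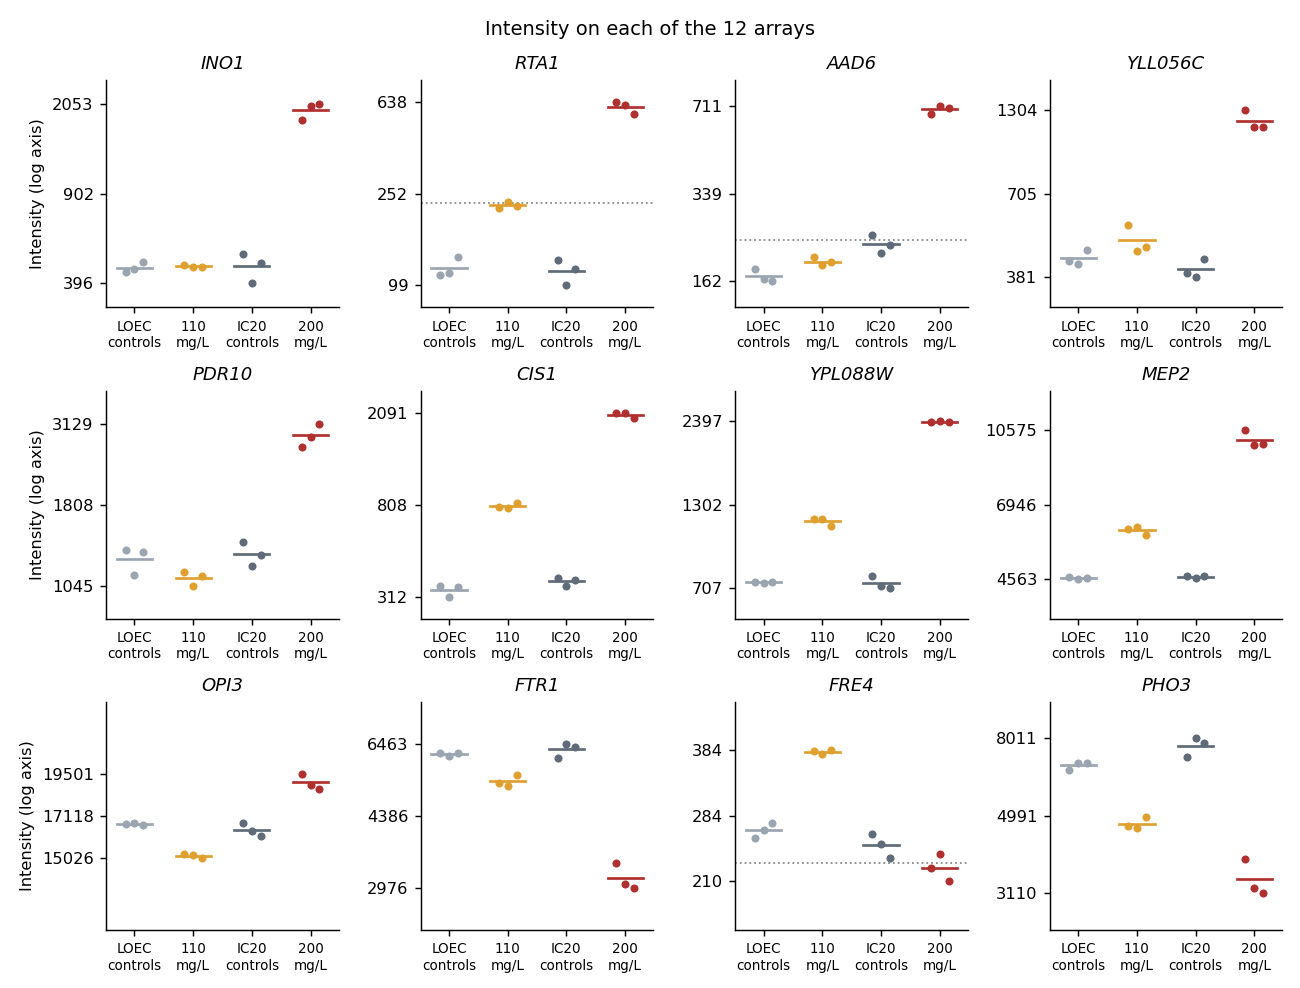
Intensity (vertical axes, log scale, one per gene) on each of the 12 arrays for 12 genes, with points for arrays, bars for group means and a dotted line at 228.8, the highest reading of the deleted loci. INO1, PDR10 and AAD6 stand high only at 200 mg/L, RTA1 clearly exceeds the dotted line only at 200 mg/L, CIS1, YPL088W and MEP2 rise in 2 steps, and FTR1 and PHO3 are lowest at 200 mg/L.

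INO1 (YJL153C) had the largest difference among the genes that passed. It encodes inositol-3-phosphate synthase, the enzyme that commits glucose 6-phosphate to inositol. Its intensity was 439, 451 and 479 in the LOEC controls, 467, 459 and 459 at 110 mg/L, 517, 396 and 478 in the IC20 controls, and 1765, 2011 and 2053 at 200 mg/L. The first 3 groups overlapped, and the 200 mg/L arrays all lay far above them. The response was 0.018 (SE 0.090, adjusted p = 0.97) at 110 mg/L and 2.07 (SE 0.090, adjusted p = 5.7e-08), or 4.21-fold, at 200 mg/L, with a difference of 2.06 (SE 0.13, adjusted p = 9.89e-06). OPI3 (YJR073C), the methyltransferase gene of the last steps to phosphatidylcholine, read 16688, 16764 and 16665 in the LOEC controls, 15190, 15139 and 15026 at 110 mg/L, 16745, 16317 and 16096 in the IC20 controls and 19501, 18849 and 18616 at 200 mg/L. It fell by 0.14 at 110 mg/L (adjusted p = 0.0431) and rose by 0.21 at 200 mg/L (adjusted p = 0.00174). Its difference of 0.36 (SE 0.049, adjusted p = 0.00436) joins 2 small changes, and OPI3 was the one gene that passed at both doses in opposite directions. Of 39 phospholipid genes under Ino2 and Ino4, INO1 and OPI3 were the 2 that passed, and the list's median difference was 0.040. CHO2, which encodes the methyltransferase acting before Opi3, had a difference of 0.13 (95% interval -0.011 to 0.28), and OPI1, the repressor gene, one of -0.025 (95% interval -0.18 to 0.13).

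Genes of aldehyde and carbonyl reduction held 5 positive and 0 negative calls among 31, with a median difference of 0.069. GRE2 was one of them. BDH2 (YAL061W), a putative butanediol dehydrogenase gene, read 338, 344 and 397 in the LOEC controls, 778, 786 and 812 at 110 mg/L, 347, 359 and 416 in the IC20 controls and 1781, 1577 and 1345 at 200 mg/L. It rose 2.21-fold and 4.18-fold (difference 0.92, SE 0.15, adjusted p = 0.0105). YML131W, a reductase-like gene induced by oxidants and by drugs, read 1208, 1331 and 1512, then 1913, 1944 and 1760, in the LOEC experiment, and 1464, 1327 and 1530, then 3973, 3959 and 4181, in the IC20 experiment. The rises were 1.39-fold and 2.81-fold (difference 1.01, SE 0.11, adjusted p = 0.00106). GCY1 (YOR120W), an aldo-keto reductase gene, read 1261, 1225 and 1301 in the LOEC controls, 1818, 1748 and 1830 at 110 mg/L, 1171, 1135 and 1253 in the IC20 controls and 2593, 2583 and 2424 at 200 mg/L. The control groups overlapped and each treated group formed its own level. GCY1 rose 1.43-fold and 2.14-fold (difference 0.58, SE 0.069, adjusted p = 0.0012). ADH7 (YCR105W), an NADPH-dependent alcohol dehydrogenase gene, read at or below 195 in the first 3 groups and 323, 311 and 302 at 200 mg/L. Its response was -0.020 at 110 mg/L (adjusted p = 0.951) and 0.77 at 200 mg/L (adjusted p = 1.63e-05). With low values raised to 228.8 its difference of 0.79 (adjusted p = 0.00141) became 0.45 (adjusted p = 7.26e-05).

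The putative aryl-alcohol dehydrogenases, relatives of an enzyme that reduces aromatic aldehydes in a wood-rotting fungus, gave 2 positive calls among 5 measured genes. AAD6 (YFL056C) read 180, 165 and 162 in the LOEC controls, 198, 185 and 190 at 110 mg/L, 240, 205 and 220 in the IC20 controls and 665, 711 and 701 at 200 mg/L. The 200 mg/L arrays stood alone, and AAD6 was the one gene of the 68 that also passed between the control groups, where the fitted difference was 0.39. Both control means, 169 and 222, lie below 228.8, so that difference has no interpretable size. Its difference was 1.47 (SE 0.090, adjusted p = 9.89e-06), and 1.57 with low values raised. AAD4 (YDL243C) read 2158, 2182 and 2265, then 2475, 2420 and 2517, in the LOEC experiment, and 2378, 2024 and 2337, then 4013, 4245 and 4247, in the IC20 experiment. The difference was 0.73 (SE 0.084, adjusted p = 0.0011), but this probe set is shared with similar sequences. A second AAD4 probe set, left out of the main test for its lower level, gave a difference of 0.28 (adjusted p = 0.524). The differences of AAD10, AAD3 and AAD14 were 0.16, 0.16 and 0.038 and did not pass. YPL088W, which encodes a further putative aryl-alcohol dehydrogenase and was not in the list, read 740, 733 and 740 in the LOEC controls, 1169, 1173 and 1118 at 110 mg/L, 771, 717 and 707 in the IC20 controls, and 2381, 2397 and 2385 at 200 mg/L. The difference was 1.06 (SE 0.058, adjusted p = 9.89e-06), with a rise of 1.56-fold at the lower and 3.26-fold at the higher dose.

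Of 31 oxidative stress genes under Yap1 and Skn7, 3 passed, all positive: FRM2, YML131W and ADH7 (median difference of the list 0.041). FRM2 (YCL026C-A), which encodes a nitroreductase-like protein, read 299, 301 and 305 in the LOEC controls, 595, 592 and 572 at 110 mg/L, 302, 299 and 284 in the IC20 controls and 1028, 1006 and 909 at 200 mg/L. It rose 1.94-fold and 3.32-fold (difference 0.77, SE 0.070, adjusted p = 0.000211). Of 27 glutathione genes, GTT2 (YLL060C) and ECM4 (YKR076W), both glutathione transferase genes, passed, with differences of 0.51 (SE 0.10, adjusted p = 0.033) and 0.48 (SE 0.10, adjusted p = 0.0417). Each of these 2 calls was kept in few of the 12 fits that left out 1 array, 3 for GTT2 and 1 for ECM4. YLL056C, an uncharacterized gene, read 430, 420 and 466 in the LOEC controls and 560, 463 and 477 at 110 mg/L. It read 393, 381 and 437 in the IC20 controls and 1304, 1150 and 1150 at 200 mg/L. Its response was 0.18 (adjusted p = 0.309) at 110 mg/L and 1.57 at 200 mg/L (adjusted p = 2.83e-07), a difference of 1.39 (SE 0.12, adjusted p = 0.000152).

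**Figure D3:**
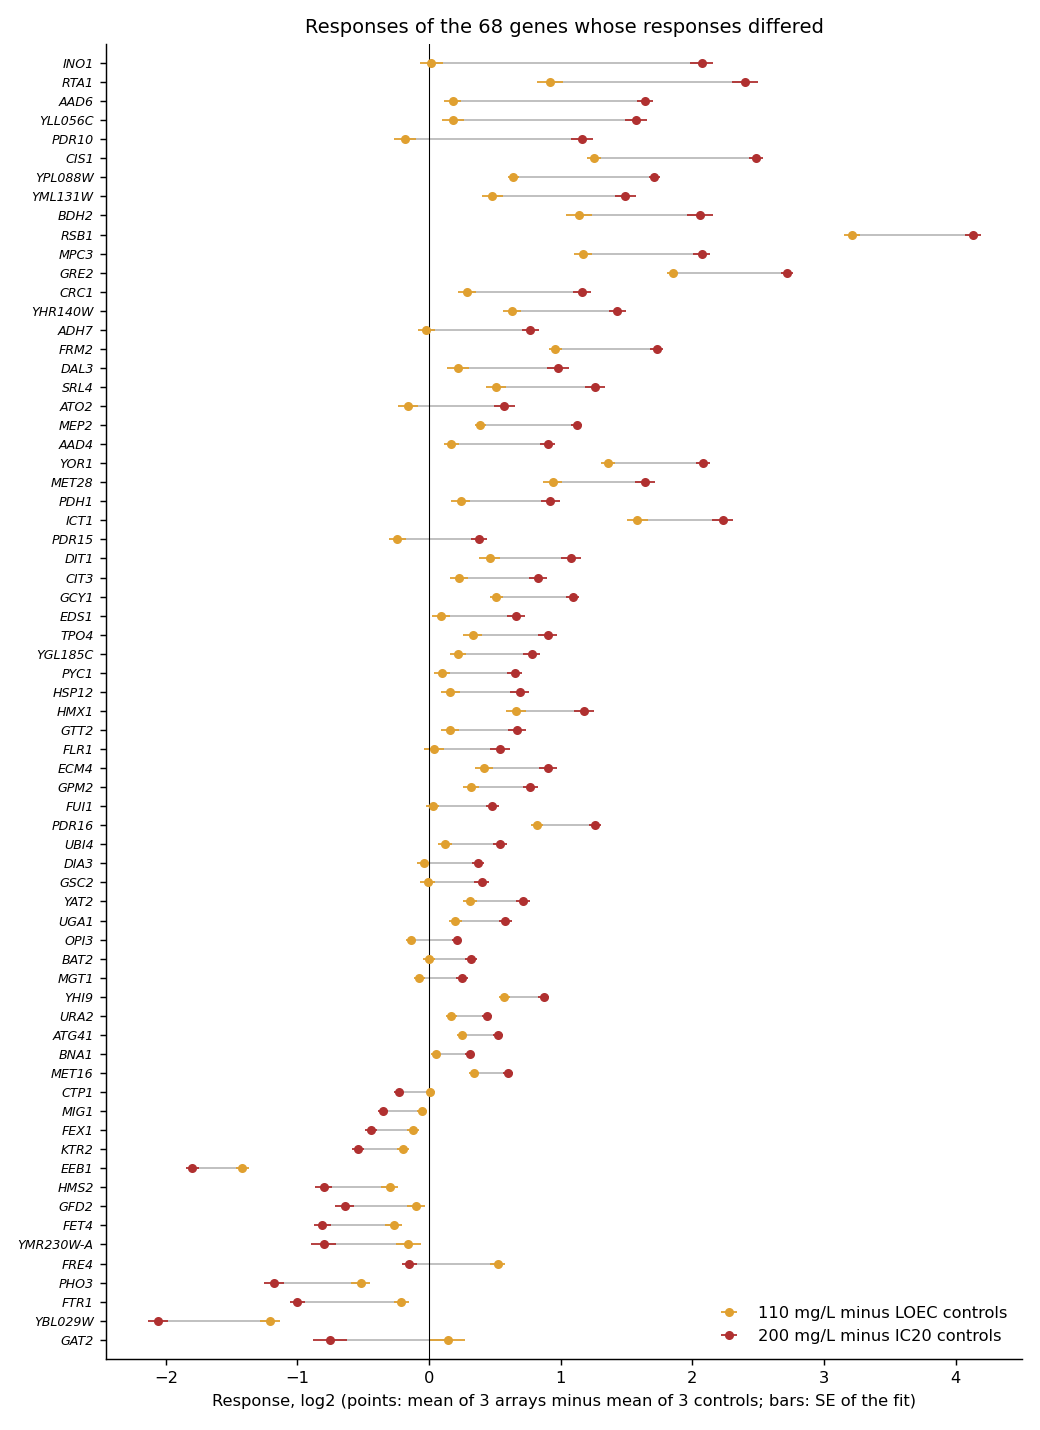
Responses of the 68 genes that passed, ordered by the difference, at 110 mg/L (yellow) and 200 mg/L (red), in log2, each point with the SE of the fit. In 57 genes the red point lies farther from 0 on the same side, in 11 the points lie on opposite sides of 0.

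In mitochondrial carbon metabolism, 5 of 41 genes of the TCA and glyoxylate cycles and gluconeogenesis passed, all positive, and the list's median difference was 0.049. MPC3 (YGR243W), a subunit gene of the mitochondrial pyruvate carrier, read 1034, 1051 and 1206 in the LOEC controls, 2552, 2459 and 2396 at 110 mg/L, 967, 1012 and 1061 in the IC20 controls and 4495, 4262 and 4028 at 200 mg/L. Both treated groups lay above all controls and apart from each other (difference 0.90, SE 0.094, adjusted p = 0.000531). CRC1 (YOR100C), the carnitine carrier gene of the inner mitochondrial membrane, read 363, 346 and 302 at 110 mg/L and 625, 613 and 631 at 200 mg/L, with controls between 262 and 295. Its difference was 0.87 (SE 0.10, adjusted p = 0.00106). YAT2 (YER024W), a carnitine acetyltransferase gene, rose by 0.31 and 0.71 (difference 0.40, adjusted p = 0.028; kept in 4 of the 12 fits that left out 1 array). PYC1 (YGL062W), a pyruvate carboxylase gene, read 6989, 6850 and 6910, then 7491, 7388 and 7301, in the LOEC experiment, and 6552, 6091 and 6710, then 9604, 9630 and 11138, in the IC20 experiment. PYC1 had a response of 0.10 at 110 mg/L (adjusted p = 0.489) and rose by 0.65 at 200 mg/L (difference 0.55, SE 0.084, adjusted p = 0.00846). CIT3 (YPR001W) and its neighbour on the chromosome PDH1 (YPR002W), genes of the methylcitrate route that handles propionate, had differences of 0.60 (adjusted p = 0.0122) and 0.67 (adjusted p = 0.00846). PDH1 was not a member of the list and is not among its 5 calls. CIT3 read at most 179 outside the 200 mg/L group, and its difference became 0.24 with low values raised (adjusted p = 0.0163).

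Yeast keeps genes under nitrogen catabolite repression low when a preferred nitrogen source is at hand. A list that mixes such genes with regulators and permeases, LYP1, MUP1, URE2 and GLN3 among them, gave 3 positive and 0 negative calls among 49. The median difference of the list was 0.16, and 40 of its 49 values were above 0, compared with 48.5% of all genes. The values above 0 include those of PUT4, DAL80, DAL4, DAL1 and ALP1, which read below 228.8 on every array. An unadjusted p under 0.05 with a positive difference was reached by 15 members, and by 300 of all 5449 genes. MEP2 (YNL142W), the high-affinity ammonium permease gene, read 4630, 4563 and 4583 in the LOEC controls, 6043, 6140 and 5869 at 110 mg/L, 4641, 4586 and 4656 in the IC20 controls and 10575, 9745 and 9781 at 200 mg/L. The control groups overlapped and the treated groups stood at separate levels (difference 0.73, SE 0.058, adjusted p = 8.19e-05). DAL3 (YIR032C), an allantoin degradation gene, read 371, 423 and 381, then 456, 462 and 447, in the LOEC experiment, and 370, 449 and 368, then 836, 759 and 734, in the IC20 experiment (difference 0.76, SE 0.12, adjusted p = 0.00846). UGA1 (YGR019W), the GABA transaminase gene, had responses of 0.20 (adjusted p = 0.065) and 0.58 (adjusted p = 2.15e-05), with a difference of 0.38 (adjusted p = 0.033) that was kept in 2 of the 12 fits that left out 1 array. UGA2, GAP1 and GAT1, which follow in the same list, had differences of 0.47, 0.43 and 0.39 and did not pass (adjusted p = 0.0563, 0.079 and 0.079).

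In sulfur amino acid metabolism, 2 of 47 genes passed. MET28 (YIR017C), a regulator gene of sulfur assimilation, read 202, 225 and 215, then 406, 455 and 377, in the LOEC experiment, and 192, 218 and 197, then 643, 610 and 642, in the IC20 experiment. The difference was 0.70 (SE 0.10, adjusted p = 0.00699), and 0.62 with low values raised. MET16 (YPR167C), a gene of sulfate reduction, rose by 0.34 and 0.60, and its difference of 0.26 was at the edge of the threshold (adjusted p = 0.04999) and was kept in 0 of the 12 fits that left out 1 array. Among 45 genes of pyrimidine and purine synthesis, URA2 (YJL130C), for the first steps of pyrimidine synthesis, and FUI1 (YBL042C), the uridine permease gene, passed with differences of 0.27 (adjusted p = 0.0457) and 0.45 (adjusted p = 0.00846). FUI1 read 6039 to 6729 on all 9 arrays without 200 mg/L and 8656, 9002 and 9308 with it. BAT2 (YJR148W), a branched-chain aminotransferase gene, and BNA1 (YJR025C), of NAD synthesis, differed by 0.32 (adjusted p = 0.0497) and 0.26 (adjusted p = 0.0263). The calls of URA2, BAT2 and BNA1 were kept in 0, 1 and 2 of the 12 fits that left out 1 array.

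Single members passed in several stress and structural lists. HSP12 (YFL014W), a small heat shock protein gene of the membrane, read 1267, 1233 and 1241, then 1421, 1406 and 1359, in the LOEC experiment, and 1268, 1359 and 1214, then 2290, 2102 and 1839, in the IC20 experiment (difference 0.53, SE 0.10, adjusted p = 0.0311). It was 1 of 33 heat shock and chaperone genes, whose median difference was 0.012. UBI4 (YLL039C), the polyubiquitin gene, differed by 0.42 (adjusted p = 0.0203) and ATG41 (YPL250C), of autophagy, by 0.27 (adjusted p = 0.0458). GSC2 (YGR032W), a glucan synthase subunit gene, had a response of -0.010 at 110 mg/L and rose by 0.40 at 200 mg/L (difference 0.41, adjusted p = 0.0417), 1 of 61 wall genes. MGT1 (YDL200C), a DNA repair methyltransferase gene, had responses of -0.074 (adjusted p = 0.467) and 0.25 (adjusted p = 0.00269), with a difference of 0.32 (adjusted p = 0.0318). Of the 12 fits that left out 1 array, HSP12 kept its call in 3, UBI4 in 4, ATG41 in 1, GSC2 in 2 and MGT1 in 2.

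Other genes with a positive difference were YHR140W (0.81), SRL4 (0.75), ATO2 (0.74), DIT1 (0.62), EDS1 (0.57), YGL185C (0.56), HMX1 (0.52), GPM2 (0.46), DIA3 (0.41) and YHI9 (0.30). YHR140W, an uncharacterized gene, read 456, 475 and 511 in the LOEC controls, 741, 755 and 729 at 110 mg/L, 429, 467 and 500 in the IC20 controls and 1336, 1254 and 1183 at 200 mg/L (SE of the difference 0.093, adjusted p = 0.00111). YGL185C, similar to hydroxyacid dehydrogenases, read 452, 456 and 432, then 527, 560 and 473, in the LOEC experiment, and 442, 429 and 419, then 781, 704 and 727, in the IC20 experiment (adjusted p = 0.0106). HMX1 (YLR205C), the heme oxygenase gene, read 440, 456 and 417 at 110 mg/L and 581, 676 and 553 at 200 mg/L, with controls of both experiments between 248 and 290. It rose 1.58-fold and 2.27-fold, and its difference (adjusted p = 0.0464) was kept in 1 of the 12 fits that left out 1 array. YHI9 kept its call in 1 of these fits, GPM2 in 3, EDS1 in 6 and DIT1 in 7, and YHR140W, SRL4, ATO2, YGL185C and DIA3 kept theirs in all 12. ATO2, EDS1 and DIA3 read below 228.8 in all 4 groups, so their fitted differences say nothing of the size of a change in the transcripts. With low values raised, the differences of SRL4 and DIT1 became 0.39 and 0.17 and did not pass (adjusted p = 0.0871 and 0.463).

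The negative differences included 3 of the 37 measured members of the regulon that Aft1 and Aft2 switch on in iron shortage, and the same list held 2 positive ones, HMX1 and ECM4. FTR1 (YER145C), the permease gene of high-affinity iron uptake, read 6152, 6050 and 6146 in the LOEC controls, 5240, 5136 and 5453 at 110 mg/L, 5967, 6463 and 6361 in the IC20 controls and 3412, 3049 and 2976 at 200 mg/L. All treated arrays were below all controls, those at 200 mg/L by a wider margin. The response of -0.21 at 110 mg/L did not pass (adjusted p = 0.058), and at 200 mg/L FTR1 fell to 0.502 of its controls (adjusted p = 3.75e-07), with a difference of -0.78 (SE 0.078, adjusted p = 0.000402). FET4 (YMR319C), a low-affinity iron transporter gene that is also on the zinc list, read 2976, 2923 and 2809, then 2483, 2344 and 2394, in the LOEC experiment, and 3020, 2623 and 2855, then 1472, 1699 and 1661, in the IC20 experiment. It fell at both doses, by 0.27 and 0.81 (difference -0.54, SE 0.092, adjusted p = 0.0157). FRE4 (YNR060W), a ferric reductase gene, read 256, 266 and 275 in the LOEC controls, 383, 377 and 384 at 110 mg/L, 261, 249 and 234 in the IC20 controls and 223, 238 and 210 at 200 mg/L. It rose by 0.52 at 110 mg/L (adjusted p = 0.000208), while the response of -0.15 at 200 mg/L did not pass (adjusted p = 0.0845), and the difference was -0.67 (SE 0.079, adjusted p = 0.00115). At 200 mg/L, 2 arrays and the group mean of FRE4 lay below 228.8, and its controls read close to that level. With low values raised its difference was -0.62 (adjusted p = 0.000776).

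Over the whole iron list the values went both ways, with a median difference of -0.036 and 22 of 37 values below 0. Counting the members that passed, 9 had an unadjusted p under 0.05 with a negative difference and 2 with a positive one. Over all 5449 genes these counts were 276 and 300. FET3, the oxidase that works with Ftr1, had responses of 0.17 and -0.20 and a difference of -0.37 (95% interval -0.63 to -0.11, adjusted p = 0.223). FIT3, a siderophore-retaining wall protein gene, had a difference of -0.29 (adjusted p = 0.411), whereas its relative FIT2 had one of 0.20 (adjusted p = 0.486). None of these passed.

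Of the other negative differences, YBL029W, an uncharacterized gene, read 602, 538 and 562 in the LOEC controls, 234, 238 and 262 at 110 mg/L, 559, 603 and 585 in the IC20 controls and 157, 134 and 130 at 200 mg/L. Its difference of -0.84 (SE 0.11, adjusted p = 0.00229) lay almost wholly below the level of the deleted loci and became -0.13 with low values raised (adjusted p = 0.595). PHO3 (YBR092C), an acid phosphatase gene of thiamine supply, read 6626, 6879 and 6910, then 4698, 4633 and 4947, in the LOEC experiment, and 7175, 8011 and 7816, then 3845, 3205 and 3110, in the IC20 experiment. It fell by 0.52 and 1.18 (difference -0.67, SE 0.11, adjusted p = 0.0106). EEB1 (YPL095C), an ethyl ester synthase gene, read 4485, 4506 and 4218 in the LOEC controls, 1575, 1619 and 1746 at 110 mg/L, 4382, 4056 and 4220 in the IC20 controls and 1194, 1219 and 1218 at 200 mg/L. Most of the fall was present at 110 mg/L, with a further step at 200 mg/L. EEB1 fell to 0.374 and 0.287 of its controls (difference -0.38, SE 0.070, adjusted p = 0.0264). HMS2 (YJR147W), a gene for a heat shock factor-like protein, read 1706, 1738 and 1607, then 1373, 1366 and 1365, in the LOEC experiment, and 1820, 1920 and 1905, then 1209, 1052 and 994, in the IC20 experiment. It fell by 0.30 and 0.80 (difference -0.50, adjusted p = 0.0264), and it lies next to BAT2, which differed in the positive direction.

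MIG1 (YGL035C), the repressor gene of glucose repression, read 1761, 1694 and 1792, then 1660, 1648 and 1742, in the LOEC experiment, and 1694, 1692 and 1732, then 1332, 1369 and 1322, in the IC20 experiment (difference -0.29, SE 0.055, adjusted p = 0.0296). GAT2 (YMR136W), a GATA-type transcription factor gene, had responses of 0.14 (adjusted p = 0.711) and -0.75 (adjusted p = 0.00276). Its 200 mg/L arrays spread from 1152 to 1750, and the difference of -0.90 was at the edge of the threshold (SE 0.19, adjusted p = 0.04999). YMR230W-A (-0.64, adjusted p = 0.04999), GFD2 (-0.54), KTR2, a mannosyltransferase gene (-0.33), FEX1, a fluoride exporter gene on a shared probe set (-0.32), and CTP1, the mitochondrial citrate carrier gene (-0.24), completed the set. FTR1, FRE4, PHO3 and YBL029W kept their calls in all 12 fits that left out 1 array and FET4 in 11. The calls of the other 9 negative genes were kept in 0 to 4 of them.

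**Figure D4:**
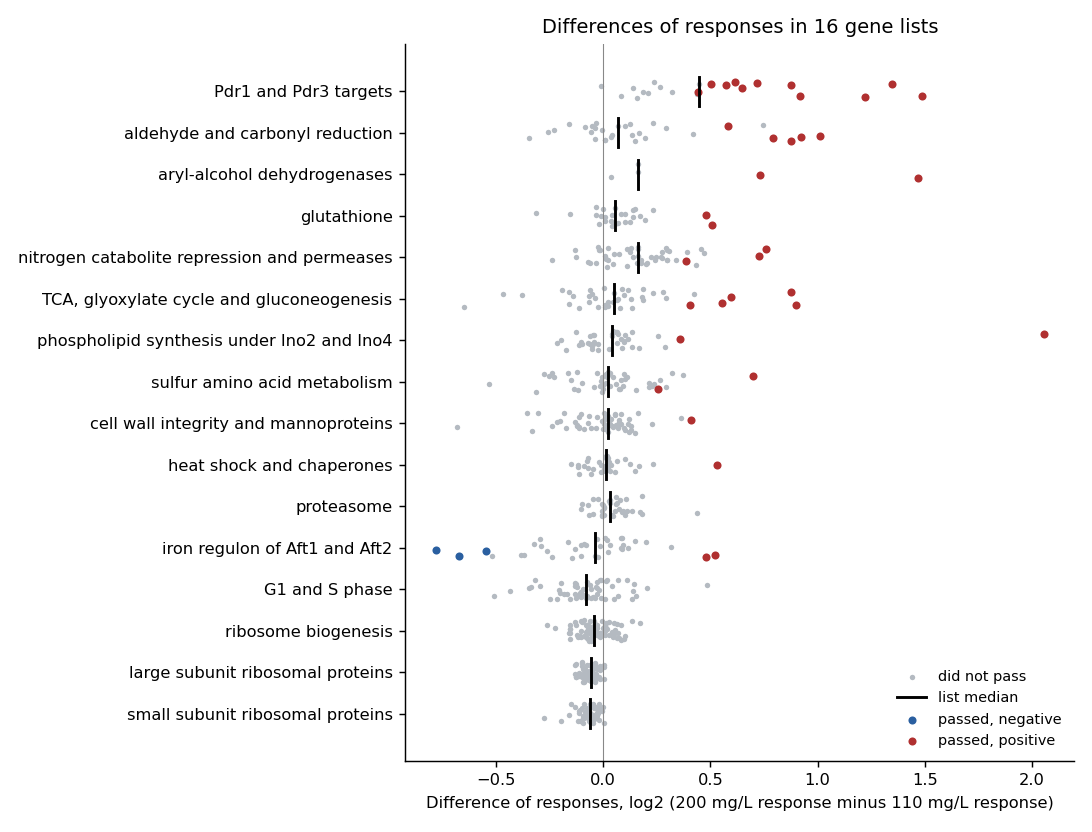
Differences of responses (horizontal axis, log2) of the members of 16 gene lists, 1 point a gene, with black bars for list medians. Of the lists shown, the targets of Pdr1 and Pdr3 have the highest median, 0.45, and the ribosomal protein lists lie close together just below 0.

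Smaller responses at 200 mg/L were seen as values but not as calls. Among the 232 genes that passed at 110 mg/L, 166 rose there, and the fitted response at 200 mg/L was larger in 126 of them, smaller in 38 and opposite in 2. Of the 66 that fell, it was larger in 42, smaller in 23 and opposite in 1. These genes were chosen by one of the responses compared, so the shares are a description. The median response of the risen genes was 0.37 at 110 mg/L and 0.48 at 200 mg/L, and that of the fallen ones -0.30 and -0.41. In 61 genes the response was smaller at 200 mg/L, 0 of them passed for the difference in limma, and 10 had an unadjusted p under 0.05. DUR3, COT1, PRY3, TIS11, FDH1, DIN7, YDR514C, VMR1, SER33 and MZM1 were those 10, named after their values were seen. TIS11, which encodes an RNA-binding protein of the iron response, read 410, 421 and 456, then 1266, 1167 and 1385, in the LOEC experiment, and 451, 480 and 485, then 1237, 1077 and 1046, in the IC20 experiment. It rose by 1.57 and 1.24, and the difference of -0.32 had a 95% interval of -0.57 to -0.080 (adjusted p = 0.267). DUR3, the urea permease gene, fell by 0.43 at 110 mg/L, had a response of -0.13 at 200 mg/L (adjusted p = 0.12) and a difference of 0.30 (95% interval 0.14 to 0.47, adjusted p = 0.0899).

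Large groups of growth genes had differences close to 0. None of 72 measured genes of large ribosomal subunit proteins and none of 52 of small ones passed in limma (0 of each), with 1 and 3 at an unadjusted p under 0.05. Their median differences were -0.058 and -0.062, and 69 and 51 of the values were below 0, while the median over all genes was -0.0047. Over all genes the difference followed coding length with rho 0.14, and whether length entered these medians was not tested. The 87 ribosome biogenesis genes had a median of -0.043 and 0 calls (2 at an unadjusted p under 0.05), the 37 proteasome genes one of 0.034 and 0 calls (4 at an unadjusted p under 0.05), and the 59 genes of the G1 and S phases one of -0.079 and 0 calls (8 at an unadjusted p under 0.05, 7 of them negative). The 40 genes of the ergosterol and isoprenoid pathway had a median of 0.031 and 0 calls (5 at an unadjusted p under 0.05).

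Each difference of responses is the gap between the treated groups minus the gap between the control groups. In 68 of 68 genes the treated groups differed from each other by more than the control groups did. These genes were picked by the gap between treated groups minus that between controls, in the same arrays. The count and the medians below therefore describe the picked genes and test nothing. In the 55 of them with all 4 group means above 228.8, the controls differed by -0.14 (FLR1) to 0.24 (GFD2). The fitted extremes over all 68, -0.36 for SRL4 and 0.39 for AAD6, come from control means below that level. The median size of the control difference was 0.055 over the 68 genes and 0.064 over all genes, while the median size of the difference between treated groups was 0.58. Between the control groups 43 of 5449 genes passed (0.789%), and AAD6 was 1 of them. The median coding length of the 68 genes was 1127 bases and that of all genes 1236. With each array's trend with coding length removed, 61 of the 68 genes passed among 99 in all.

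**Figure D5:**
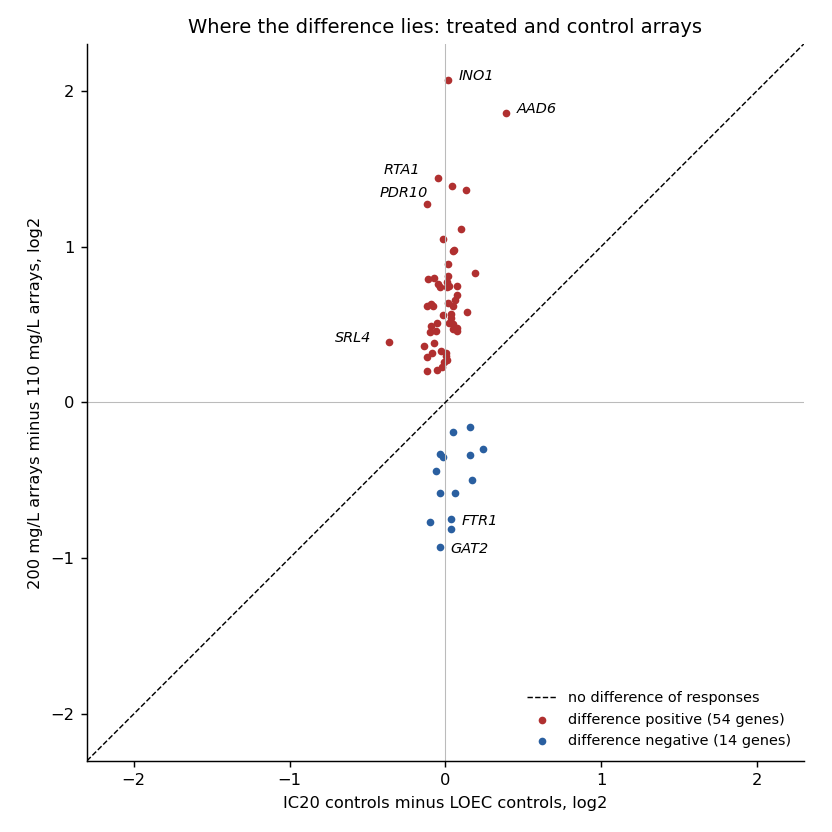
The 68 genes placed by the difference between the control groups (horizontal axis, log2) and between the treated groups (vertical axis, log2), with the dashed line where the difference of responses is 0. Points spread along the vertical axis from about the value of GAT2 to that of INO1, and stay within -0.36 to 0.39 on the horizontal axis, where SRL4 and AAD6, at the ends, have control means below 228.8.

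How far the calls rest on single arrays varied from gene to gene. Leaving out the LOEC control arrays 1, 2 or 3 left 45, 42 or 47 genes past the test. Leaving out the 110 mg/L arrays in the same order left 39, 46 or 41. For the IC20 controls the counts were 39, 49 and 55, and for the 200 mg/L arrays 56, 43 and 68. Of the 68 genes, 37 passed in each of these 12 fits. In 23 alternative fits, those 12 included, 19 genes passed in every fit that tested them, 17 with a positive and 2 with a negative difference. The 2 were FTR1 and FRE4, and the 17 were INO1, RTA1, AAD6, YLL056C, PDR10, CIS1, YPL088W, YML131W, RSB1, MPC3, GRE2, CRC1, FRM2, AAD4, MEP2, YOR1 and PYC1. The sign of the difference turned in 0 of the 68 genes.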

How the data were processed

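Biotin-labelled RNA was hybridized to 12 Affymetrix Yeast Genome 2.0 arrays, per the labels' protocols. The authors deposited linear intensities; the submitters' processing notes name Affymetrix Expression Console, and the normalization behind the values is not given in these sources. Array medians were 1561.3 to 1613 and 27 of 68592 values were exactly 1. Log2 was taken without a pseudocount. Of 5716 probe sets, 5498 had 1 gene in the platform annotation and 218 none; names were updated through RefSeq (assembly R64), and the brightest probe set stood for a gene (5449 genes). The number of arrays limits the precision. limma 3.58.1 (R 4.3.3) fitted 4 group means over 12 arrays (8 residual and 2.73 prior degrees of freedom), two-sided.

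Genes named are the 15 largest differences in each direction, up to 4 per list, those with opposite calls, and all Pdr1 and Pdr3 targets; others were chosen after their values were seen. Members and lists were chosen with earlier results of these data known. Raising values below 228.8 to that level was chosen after seeing the data. The procedure was run on simulated data with independent noise and, for each gene, the same spread in all groups. The simulation held neither the wider spread of the IC20 arrays nor the trends with coding length. A planned search for promoter motifs was not run here.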

Additional observations from a re-analysis of the deposited data

Results flagged for a closer look

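In 11 of the 68 genes the fitted responses at the doses had opposite signs, with these differences of responses: PDR10 1.34, ADH7 0.79, ATO2 0.74, PDR15 0.62, DIA3 0.41, GSC2 0.41, OPI3 0.36, MGT1 0.32, CTP1 -0.24, FRE4 -0.67 and GAT2 -0.90. Only OPI3 passed in opposite directions at both doses. FRE4 passed at 110 mg/L alone and the other 9 at 200 mg/L alone, so a turn of direction is not shown for those 10.

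Probe sets that the annotation ties to no gene lay outside the main test. In a fit over all probe sets, 6 of these 218 passed for the difference (2.75%), 5 with a positive and 1 with a negative value. Probe set 1776865_at had a difference of 4.26, larger than that of any named gene. It read 152, 155 and 172 in the LOEC controls, 469, 426 and 475 at 110 mg/L, 143, 140 and 153 in the IC20 controls and 8250, 8178 and 7409 at 200 mg/L. The response was 1.52 at 110 mg/L and 5.77 at 200 mg/L (adjusted p = 9.64e-10 for the difference), measured over controls below 228.8. The others were 1774184_at (0.82), 1780022_at (0.82, below 228.8 on every array), 1778857_at (0.61), 1776127_at (0.49) and 1777669_at (-0.64).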

How the results depend on the processing

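Of the genes that passed for the difference, 68 in the main analysis, quantile normalization shared 62, median centring 61, array weights 66, log2 of the value plus 16 67, an intensity trend 59, and leaving out the 20% dimmest genes 48 of the 48 it tested. Leaving out 1 array gave 39 to 68 genes, 34 to 54 positive and 5 to 14 negative, 31 to 57 larger, 0 to 1 smaller and 6 to 13 opposite; the counts at 110 mg/L, at 200 mg/L and between controls were then 113 to 266, 713 to 973 and 5 to 58. With the replicate number as a block 21 genes passed, all among the 68 (19 positive, 2 negative; 19 larger, 2 opposite), and 97 at 110 mg/L, 519 at 200 mg/L and 2 between controls. The labels do not say whether arrays with the same number share a source. Deviations of arrays with the same number correlated by -0.322, -0.00984 and -0.134 in the LOEC experiment and -0.615, -0.196 and 0.144 in the IC20 experiment. Those deviations also hold the trends with coding length, so the correlations cannot show whether the arrays were paired. The fit has 4 residual degrees of freedom. Adjusted p under 0.01 left 32 (29 and 3; 26 larger, 6 opposite), 108, 481 and 7. A change of at least 1 left 8 (8 and 0; 7 larger, 1 opposite), 19, 53 and 5. Array weights (1.43 for LOEC, 0.7 for IC20) gave 514 genes at 110 mg/L and 630 at 200 mg/L. Without the dimmest genes 20 passed between controls. With the length trend removed these were 72, with 1 smaller and 23 opposite responses. Raising low values gave 86 calls, 25 of them negative, 1 smaller and 18 opposite. PDR18 and HXT11, which did not pass, turned sign: PDR18 to 0.0098 with quantile normalization and over -0.076 to 0.038 without single arrays, HXT11 to -0.054 without 2 arrays together and over -0.02 to 0.35 without single arrays. The causes were not tested.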

Other observations

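Of the 68 genes, 47 were members of at least 1 of the lists and 21 of none. Neighbouring genes both passed at 2 places: CIT3 and PDH1, with differences of 0.60 and 0.67, and HMS2 and BAT2, with differences of -0.50 and 0.32.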
